A study of Mus musculus with 12 samples.

Results

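Cytosolic ribosomal protein genes were followed in mouse liver after acetaminophen (APAP), an analgesic that injures hepatocytes at high dose. The members were the 88 protein-coding genes, of 45777 genes in the table, whose symbol begins with Rpl or Rps followed by a digit, together with Rplp0, Rplp1, Rplp2 and Rpsa. Symbols marked as pseudogenes and the Rps6k kinases were left out. The rule used no measured value. It took 77 core ribosomal proteins (31 of the small subunit and 46 of the large subunit) and 11 relatives, namely Rpl3l, Rpl7l1, Rpl10l, Rpl22l1, Rpl32l, Rpl36al, Rpl37rt, Rpl39l, Rps27l, Rps27rt and Rps19bp1. Fau and Rack1, which also supply or sit on the ribosome, carry other symbols and fell outside it.

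RNA of 12 livers from male C57BL/6 mice aged 10 to 12 weeks was sequenced, 3 livers in each of 4 groups. The groups were wild type with vehicle, wild type with APAP, Gα12KO with vehicle and Gα12KO with APAP. After an overnight fast the APAP groups had received a single intraperitoneal dose of 300 mg/kg, and livers were taken 6 h later. Gα12, the product of Gna12, is a G protein subunit, and the knockout mice (Gα12-/-) were set against age-matched littermates. Gna12 itself was counted 2472 to 4003 times in the 6 libraries labelled KO and 1193 to 4373 times in the 6 labelled WT, so the count did not separate the labels, and the groups are named by label throughout. Total counts per library ran from 49737950 to 69566079. All 12 hepatocyte markers were counted in every group. The APAP-treated WT liver 1 stood apart in its red cell and neutrophil RNA: its summed erythroid markers reached 17367 CPM (read counts scaled to library size, which compare livers and not genes) against 253 to 749 in the other 11 livers, and its neutrophil markers 147 CPM against 1.42 to 23.8. That liver was also the highest for hepatocyte, endothelial and lymphocyte markers, at 154140, 319 and 22.4 CPM. No other liver passed 122060, 274 and 13.7 CPM for these. It was not the highest for Kupffer cell and macrophage markers. In whole liver, fewer cells of a type and less RNA per cell cannot be told apart.

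A ribosome is built from a small and a large subunit, each a scaffold of ribosomal RNA that carries many proteins present in a single copy, apart from the P-stalk proteins Rplp1 and Rplp2, which are present as pairs. Most mRNAs for these proteins are short and begin with a C followed by a run of pyrimidines, the terminal oligopyrimidine (TOP) motif. The kinase complex mTORC1 promotes translation of TOP mRNAs, and the RNA-binding protein LARP1 holds them back and protects them when mTORC1 is inactive. In this way cells can change the output of ribosomal proteins with little change in the mRNA level, which is what was measured here. Free Rpl5 and Rpl11 bind Mdm2 and thereby restrain the degradation of p53 when ribosome assembly fails.

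The start-site sequences show how often a pyrimidine run lay near an annotated start of the members. This is not a count of TOP motifs. A run counted wherever it overlapped the window given below, and a C at the start was counted separately. RefSeq (GRCm38.p6) promoter sequence was held for 68 of the 88 members. A run of at least 8 C or T letters overlapped the window from 10 bases before to 20 bases after an annotated start in 32 of those 68 (47.1%), against 19.2% of the 27025 genes with a promoter sequence. The annotated start was a C in 35.3% of members and 18.9% of all genes. The letters CCGGAAG, the core to which ETS factors such as GABP bind, were found on either strand in the 300 bases around the start in 38.2% of members and 9.93% of all genes. A gene with several annotated starts was counted once if any of them held the letters. The windows below are those of the 6 members with the smallest p-values for APAP over all livers, then Rpl34 and Rps3a1, which are set beside copies of similar sequence further on. Each is given 5′ to 3′ on the gene's strand in 30 bases at the annotated start with the longest run, with that pyrimidine run in capitals where it lies in the window.
Rpl12 (chr2:32961702-32961731, plus strand): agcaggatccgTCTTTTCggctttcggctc
Rpl10a (chr17:28328555-28328584, plus strand): atttgagcgcatgcgcaaagcgctctgCCT
Rps19bp1 (chr15:80264287-80264316, minus strand): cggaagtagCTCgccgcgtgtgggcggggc
Rpl7l1 (chr17:46782637-46782666, minus strand): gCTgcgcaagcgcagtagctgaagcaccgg
Rpl22l1 (chr3:28805498-28805527, plus strand): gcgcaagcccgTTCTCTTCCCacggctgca
Rpl13 (chr8:123102340-123102369, plus strand): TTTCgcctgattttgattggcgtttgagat
Rpl34 (chr3:130730318-130730347, minus strand): CTTTTCCTCTTCCggggacggtgctcagag
Rps3a1 (chr3:86142649-86142678, minus strand): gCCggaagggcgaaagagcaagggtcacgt
The run was 7 letters long at Rpl12 and 10 at Rpl22l1, both just after the annotated start. It was 2 letters long at Rpl7l1 and 3 at Rps19bp1, the latter 2 coding for a relative of Rpl7 and for a binding partner of Rps19 rather than for core ribosomal proteins.

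Ribosomal protein mRNAs were abundant and uneven. TPM, a level corrected for transcript length and library size, averaged 333 at the median core gene of the small subunit and 304 at that of the large subunit. The highest mean levels over the 12 livers were those of Rplp1 (805 TPM), a P-stalk protein, Rps18 (657 TPM) and Rpl10 (655 TPM). Of the 77 core genes, 72 averaged at least 100 TPM. The other 5 were Rps15a (30 TPM), Rps20 (51.5 TPM), Rpl29 (56.1 TPM), Rpl22 (59.6 TPM) and Rpl15 (99.5 TPM). Each level depends on the transcript lengths the authors assigned. Rps15a had 99.8 CPM and a GENCODE transcript of 640 nt, where Rps25, at 316 TPM, had 137 CPM and 577 nt. Whether the assigned length set the low TPM of Rps15a was not tested. The mean of Rpl29 lay between 2 ranges, 12.7 to 17.2 TPM in most livers and 120 to 177 TPM in the rest. The ratio of summed TPM of large-subunit to small-subunit core genes stayed between 1.27 and 1.43 over the 12 livers.

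The relatives covered a wide range. Rpl36al averaged 269 TPM, Rps27l 243 TPM, Rpl22l1 62.1 TPM, Rpl7l1 34 TPM, Rps19bp1 14.5 TPM, Rps27rt 9.2 TPM and Rpl37rt 3.53 TPM. The lowest were Rpl10l and Rpl39l, at 0 counts in all 12 livers, which allows up to 3 counts or 0.0399 to 0.0663 CPM depending on the library. Rpl3l, the relative of Rpl3 found in striated muscle, averaged 0.041 TPM and had at most 16 counts in a library. Rpl32l averaged 0.222 TPM with at most 12 counts. These 4 did not pass the filter on low counts, which left 84 members tested.

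The summed level of the 88 genes in TPM was higher after APAP under both labels, a description without a test. With vehicle it took 2.53%, 2.51% and 2.09% of all TPM in the WT livers 1 to 3 and 2.2%, 2.29% and 2.41% in the KO-label livers. After APAP it took 3.19%, 2.68% and 2.74% in the WT livers and 2.66%, 2.77% and 2.96% in the KO-label livers. All 6 APAP livers lay above all 6 vehicle livers on this measure. The group means were 2.38% ± 0.247, 2.87% ± 0.281, 2.3% ± 0.105 and 2.8% ± 0.154 (SD, n = 3) for WT vehicle, WT APAP, KO-label vehicle and KO-label APAP. As a share of read counts the treatments overlapped. KO-label vehicle liver 3 was at 1.23% of counts, above WT APAP liver 2 (1.19%) and KO-label APAP liver 1 (1.19%). As a share of the TPM of nuclear protein-coding genes, vehicle livers reached 3.01% and APAP livers began at 3.05%. A share of TPM moves with every other abundant gene, so the tests rested on counts scaled between libraries (TMM), on which the median member gave another order. On that scale the median member sat at 8.07 log2 CPM in APAP-treated WT liver 1, and at 6.55 to 7.18 in the other 11 livers, where vehicle and APAP overlapped.

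**Figure D1:**
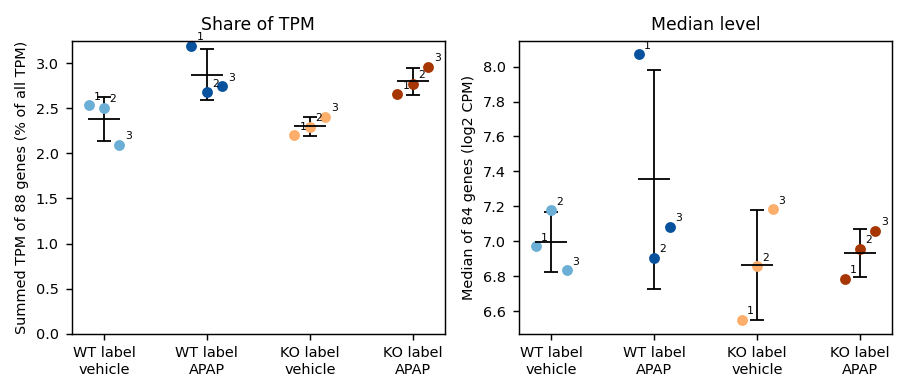
Level of the ribosomal protein genes in each liver (points, numbered by liver) with the group mean and SD (bars). Left, summed TPM of the 88 genes as a percent of all TPM, where the 6 APAP livers lay above the 6 vehicle livers. As a percent of read counts, which is not drawn, the treatments overlapped. Right, median log2 CPM of the 84 tested genes, where APAP-treated WT liver 1 was at 8.07 and the other livers at 6.55 to 7.18.

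Over all livers, with the genotype label as a covariate, 1 of the 84 members passed the test as higher after APAP and 0 as lower (edgeR quasi-likelihood test, Benjamini-Hochberg adjusted over all genes). Across all genes tested 14.0% passed as higher and 11.4% as lower, so the members were called at a smaller share than genes at large. Of the 84 log2 fold changes 83 were positive, with a median of 0.26 against 0.01 for all genes tested. Without WT APAP liver 1 that median was 0.05, with 60 members positive, and without KO-label vehicle liver 3 it was 0.37. Leaving out Rpl29, they ran from 0.04 for Rps3a1 to 0.81 for Rpl22l1, with quartiles of 0.2 and 0.33. At an unadjusted p under 0.05, 6 members were higher and 0 lower, where 19.5% of all genes were higher and 17.6% lower. DESeq2 called 5 higher and 0 lower, and the share of all genes it called is not given here. The median was 0.24 in the 31 tested members with a pyrimidine run of at least 8 letters and 0.26 in the 33 with a shorter one. The median for core genes was 0.24 in the small subunit and 0.26 in the large subunit.

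Rpl12 (chr2:32961712-32964045), a protein of the large subunit near the base of the stalk, was the member that passed. It was measured at 115, 128 and 114 CPM in the WT vehicle livers and at 256, 135 and 155 CPM in the WT APAP livers. In the KO-label livers it was at 90.4, 110.3 and 115 CPM with vehicle and 121, 125 and 159 CPM with APAP. Every APAP liver lay above every vehicle liver of its own label. Of all genes 12.9% did so under the WT label and 21.8% under the KO label, and the share under both labels is not given here. The log2 fold change over all livers was 0.49 (SE 0.16, adjusted p = 0.0356, edgeR). Leaving out any of WT vehicle liver 1 or 3, KO-label vehicle liver 1 or 2 or KO-label APAP liver 3 took the adjusted p of Rpl12 to between 0.0529 and 0.0852.

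Rpl10a (chr17:28328471-28331033), another protein of the large subunit, did not pass, at a log2 fold change of 0.5 (SE 0.18, adjusted p = 0.0555, edgeR). It was at 133, 141 and 141 CPM in WT vehicle livers and 321, 153 and 169.9 CPM in WT APAP livers. Its KO-label livers were at 104, 145 and 146 CPM with vehicle and 152, 169 and 185 CPM with APAP. The treatments did not overlap within either label, where the shares of all genes are those given for Rpl12. Rpl13, a core large-subunit protein, had a log2 fold change of 0.29 (SE 0.13, adjusted p = 0.118, edgeR). Its CPM in the KO-label livers was 136, 169.8 and 144 with vehicle and 155, 180.3 and 197 with APAP, which overlapped.

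The other 3 of the 6 smallest p-values belonged to relatives. Rps19bp1 binds Rps19 and is also known as a partner of the deacetylase Sirt1. Its log2 fold change was 0.42 (SE 0.16, adjusted p = 0.0674, edgeR), from levels of 4.82 to 7.94 CPM with vehicle and 6.92 to 10.1 CPM with APAP. Rpl7l1, a nucleolar assembly factor of the large subunit, had a log2 fold change of 0.28 (SE 0.11, adjusted p = 0.0719, edgeR), with 41.7 to 58.5 CPM with vehicle and 51 to 64 CPM with APAP. Rpl22l1 (chr3:28805508-28807424), the paralog of Rpl22, was at 13.2, 13.7 and 14.7 CPM in WT vehicle livers and 57.3, 14.5 and 23.2 CPM in WT APAP livers. In KO-label livers it was at 7.71, 15.2 and 24.2 CPM with vehicle and 16.6, 29.7 and 17.4 CPM with APAP. Treatments overlapped under both labels, and its log2 fold change of 0.81 (SE 0.34, adjusted p = 0.103, edgeR) did not pass. Without WT APAP liver 1 Rpl22l1 was at 0.45 and Rpl10a at 0.31. Rpl22 itself differed by 0.13 on the log2 scale (SE 0.16, adjusted p = 0.614, edgeR).

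The same comparison was made within each label. In WT livers 0 of 84 members passed as higher or lower, where 1.62% of all genes tested passed as higher and 0.427% as lower. At an unadjusted p under 0.05, 3 members were higher and 0 lower, where 10.7% of all genes were higher and 7.23% lower, and DESeq2 also called 0 members. The median log2 fold change was 0.48 against 0.03 over all genes, and 83 of 84 were positive. The smallest p-values belonged to Rpl22l1 at 1.21 (SE 0.46, adjusted p = 0.224, edgeR), Rpl12 at 0.63 (SE 0.26, adjusted p = 0.268, edgeR) and Rps15a, a small-subunit protein, at 0.94 (SE 0.4, adjusted p = 0.271, edgeR). Only Rpl29, at -1.51 (SE 0.82, adjusted p = 0.381, edgeR), was negative. Every WT APAP liver lay above every WT vehicle liver for 3 members (Rpl12, Rps12 and Rpl10a), which is 3 of 84 where 12.9% of all genes did so. Without WT APAP liver 1 the median fell from 0.48 to 0.02, with 52 members positive and 32 negative, and Rpl22l1 stood at 0.45, Rpl12 at 0.29 and Rps15a at 0.32.

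In the KO-label livers 0 of 84 members passed in either direction, where 13.0% of all genes passed as higher and 9.60% as lower. At an unadjusted p under 0.05, 2 members were higher and 0 lower, where 19.5% of all genes were higher and 17.5% lower. DESeq2 called 1 member, Rpl7l1, and the share of all genes it called under this label is not given here. The median log2 fold change was 0.04 against -0.02 over all genes, with 54 positive and 30 negative. The smallest p-values among positive members were those of Rpl7l1 at 0.36 (SE 0.12, adjusted p = 0.0621, edgeR), Rpl12 at 0.37 (SE 0.15, adjusted p = 0.12, edgeR) and Rpl10a at 0.37 (SE 0.16, adjusted p = 0.143, edgeR). For these 3 every APAP liver lay above every vehicle liver, as 21.8% of all genes did. Rpl12 was at 0.24 without KO-label APAP liver 3, and Rpl10a at 0.24 without KO-label vehicle liver 1. Among negative members the smallest p-values belonged to Rpl35a at -0.29, Rpl36al at -0.21 and Rps27l at -0.24. All 3 turned positive without KO-label vehicle liver 3, and the median then was 0.26 with 84 of 84 positive, while without KO-label vehicle liver 1 it was -0.09.

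**Figure D2:**
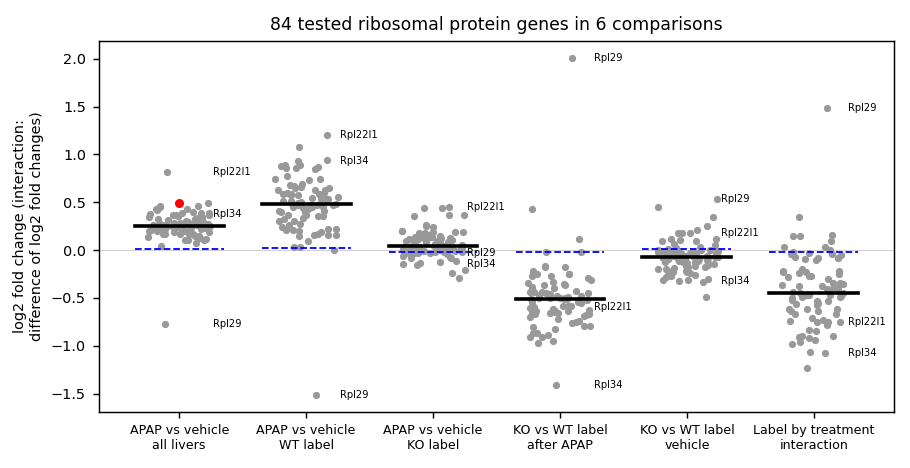
Log2 fold changes of the 84 tested members (points) in the 6 comparisons, with the median member (black line) and the median of all genes tested (dashed blue line). Members past an adjusted p of 0.05 are red (Rpl12, in the comparison over all livers). The median member lay at 0.48 for APAP under the WT label and at 0.04 under the KO label.

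The labels were then compared at each treatment. After APAP, 0 of 84 members passed in either direction, where 0.0309% of all genes did (5 of 16174). At an unadjusted p under 0.05, 1 member was higher under the KO label and 3 lower, where 1.03% of all genes were higher and 2.29% lower, and DESeq2 called 0 members. The median log2 difference, KO label minus WT label, was -0.51 against -0.02 over all genes, and 81 members were negative. Without WT APAP liver 1 the median was -0.07, with Rpl34 at -0.88, Rps21 at -0.27 and Rps12 at -0.29. The lower members with the smallest p-values were Rpl34 at -1.41 (SE 0.35, adjusted p = 0.958, edgeR), Rps21 at -0.98 (SE 0.41, adjusted p = 0.958, edgeR) and Rps12 at -0.95 (SE 0.41, adjusted p = 0.958, edgeR), the last 2 small-subunit proteins. The higher members were Rpl29 at 2.01, Rps3a1 at 0.43 and Rpl7l1 at 0.11. Rps3a1 was at 0.22 without WT APAP liver 3, and Rpl7l1 at 0.05 without WT APAP liver 2. Every KO-label liver lay below every WT liver for 2 members (Rpl34 and Rpl28), where 3.86% of all genes did so.

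With vehicle, 0 of 84 members passed in either direction, where 0.0262% of all genes did (4 of 15262). At an unadjusted p under 0.05, 0 members were higher and 2 lower, where 4.31% of all genes were higher and 3.25% lower, and DESeq2 called 0 members. The median log2 difference was -0.07 against 0.01 over all genes, and its sign rested on single livers: it was -0.29 without KO-label vehicle liver 3 and 0.07 without KO-label vehicle liver 1. The 2 lower were Rpl13 at -0.34 (SE 0.14, adjusted p = 0.652, edgeR) and Rpl18, another large-subunit protein, at -0.31 (SE 0.13, adjusted p = 0.654, edgeR). Rpl3, a protein of the peptidyl transferase region, followed at -0.49 (SE 0.22, adjusted p = 0.654, edgeR). Rpl13, Rpl18, Rpsa, Rps10 and Rplp0 were lower in every KO-label liver than in every WT liver, which is 5 of 84 where 6.53% of all genes were. The higher members with the smallest p-values, Rps3a1 at 0.34, Rps27rt at 0.45 and Rpl37rt at 0.26, had adjusted p-values between 0.796 and 0.88 (edgeR), and without KO-label vehicle liver 3 they were at 0.03, -0.14 and -0.13. Rpl3 was at -0.32 without WT vehicle liver 2.

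Whether the response to APAP differed between labels was tested as an interaction over all 12 livers. In this test 0 of 84 members passed, as did 0% of all 16509 genes, and 0 members had an unadjusted p under 0.05, where 1.84% of all genes were higher and 3.30% lower. DESeq2 called 0 members. The median difference of log2 fold changes, KO label minus WT label, was -0.45 against -0.02 over all genes. The smallest p-values were those of Rpl34 at -1.07 (SE 0.5, adjusted p = 0.872, edgeR), Rpl35a at -1.07 (SE 0.58, adjusted p = 0.872, edgeR) and Rpl37 at -0.92 (SE 0.51, adjusted p = 0.872, edgeR). Rpl29 at 1.49, Rpl3 at 0.34 and Rpl7l1 at 0.14 led in the other direction. Without WT APAP liver 1 the median was 0.06, with Rpl34 at -0.53, Rpl35a at -0.34 and Rpl37 at -0.24, and with KO-label vehicle liver 3 left out as well it was 0.23. The sign of the median therefore depended on these livers.

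The members moved together from liver to liver within a group, and the size of that movement varied with transcript length in some livers. In APAP-treated WT liver 1, 83 of the 84 members lay above the mean of their group, with a median deviation of 0.73 on the log2 CPM scale. The 28 members with the shortest transcripts (up to 560 nt) deviated by 0.94 and the 28 with the longest (at least 851 nt) by 0.55. Across the 84 members the Spearman correlation of deviation with length was -0.63, as a description over genes that share 1 library. Genes outside the family also varied with length, about a lower level. The 2087 other genes with transcripts up to 1000 nt deviated by 0.44 in this liver and the 3796 over 4000 nt by -0.22. Liver 2 of the same group deviated by -0.47 at the median member, and since deviations within a group sum to 0 the 3 values are not independent.

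KO-label vehicle liver 3 showed the same order at a smaller size. Its median member deviated by 0.38, the 28 shortest by 0.47 and the 28 longest by 0.27, and 80 of 84 lay above their group mean. In KO-label vehicle liver 1 the median deviation was -0.34, and 82 lay below the mean. Of the 84 tested members 81 had their highest CPM of all livers in WT APAP liver 1, the exceptions being Rpl29, Rpl7l1 and Rps3a1. This is the liver with 17367 CPM of erythroid markers, and its TMM factor of 0.75 was the lowest of the 12. The part of the red cells, of the neutrophils or of transcript length in the member levels was not tested.

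**Figure D3:**
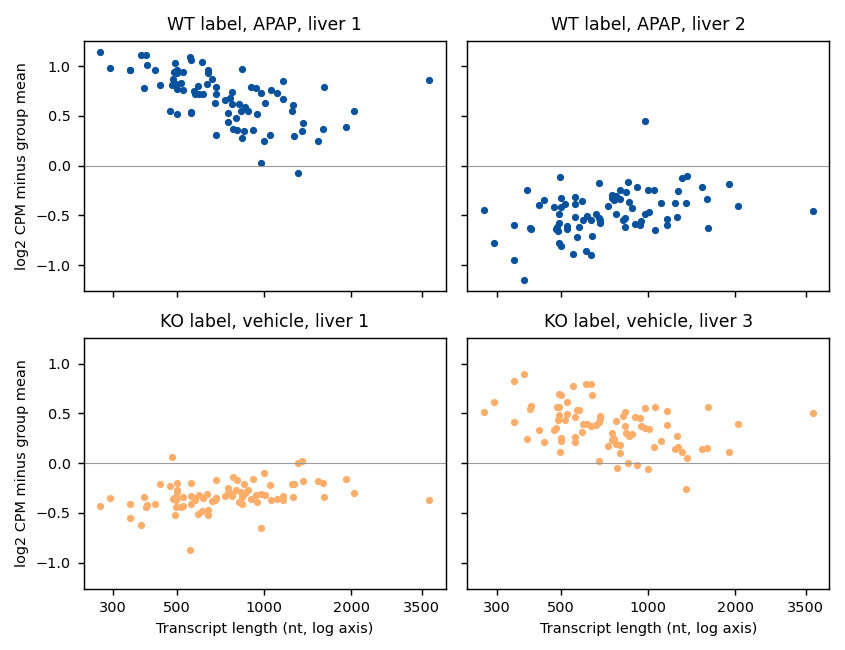
Deviation of each member from its group mean (log2 CPM, vertical) against transcript length (nt, log axis) in 4 livers, leaving out Rpl29. In WT APAP liver 1 the shortest transcripts lay highest (0.94 at the median of the 28 shortest, 0.55 of the 28 longest), and KO-label vehicle liver 3 had the same order (0.47 and 0.27).

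Deviation was next taken from the mean of all livers in a fit rather than of the group. A smooth curve of this deviation on transcript length was removed from each library, an analysis added after the data had been seen. Such a curve can also remove a treatment or label difference that varies with length. With the curve removed, the medians under the labels came closer. The median member log2 fold change was then 0.25 in WT livers, 0.12 in KO-label livers and 0.19 over all livers. The median label difference after APAP was -0.25 and the median interaction -0.12. Over all livers 6 members then passed as higher and 0 as lower, where 14.7% of all genes passed as higher and 13.1% as lower in the same fit, among them Rpl12 at 0.49 (adjusted p = 0.00862), Rpl10a at 0.43 (adjusted p = 0.00766), Rps19bp1 at 0.41 (adjusted p = 0.0309) and Rpl22l1 at 0.69 (adjusted p = 0.0403), all by edgeR. Under the KO label Rpl7l1 passed at 0.42 (adjusted p = 0.0304, edgeR), 1 of 84 where 13.3% of all genes passed as higher and 10.5% as lower.

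The remaining relatives were described for completeness. Rps27l, a paralog of Rps27 induced by p53, was at 63.7, 80.1 and 64.6 CPM in WT vehicle livers and 178, 52.3 and 82.7 CPM in WT APAP livers. In KO-label livers it was at 59.6, 60.3 and 122 CPM with vehicle and 65.9, 75.8 and 61.5 CPM with APAP. Groups overlapped, and over all livers its log2 fold change was 0.17 (SE 0.29, adjusted p = 0.713, edgeR). Rpl36al, a retrogene-derived paralog of Rpl36a, had a log2 fold change of 0.17 (SE 0.24, adjusted p = 0.642, edgeR) where Rpl36a had 0.36 (SE 0.25, adjusted p = 0.329, edgeR). Rps27rt and Rpl37rt, retrogene copies of Rps27 and Rpl37, were at 1.1 to 5.98 CPM and 1.04 to 3.67 CPM, and their highest value was again that of WT APAP liver 1. Their log2 fold changes were 0.45 (SE 0.41) and 0.47 (SE 0.31), neither past the test. The Rps27rt transcript matched 98.8% of the Rps27 transcript at 100% identity, so their reads cannot be told apart with certainty.

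Many members had near-identical copies. Against all annotated GENCODE transcripts, 31 of the 88 members had at least 1 other gene in the table matching at 95% identity or more over at least 80% of the transcript. For Rps3a1, Rpl34 and Rpl3, chosen after their values were seen, the counts of 2 copies each are given beside those of the gene, since they differed widely between livers. The copies of Rpl34 matched less than 80% of its transcript. Whether reads of a gene were assigned to its copies, or the copies were transcribed, was not tested.

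Rpl34 (chr3:130726827-130730398), a large-subunit protein, matched Rpl34-ps1 (chr6:71124589-71125001) at 99.4% identity over 73.8% of its transcript. Rpl34-ps1 had 16, 18 and 1298 counts in the WT vehicle livers and 41, 18 and 33 counts in the WT APAP livers. In the KO-label livers it had 19, 1365 and 1910 counts with vehicle and 1634, 1904 and 1927 counts with APAP. The row was thus either at 16 to 41 counts or at 1298 to 1927, and 5 of 6 KO-label livers but 1 of 6 WT livers were in the upper range. Gm10154 (chr4:83505143-83505571), a further copy at 98.9% identity, had 1 to 9 counts in the first set of livers and 456 to 676 in the second. After APAP the label difference for Rpl34-ps1 was 5.79 (SE 0.41, adjusted p = 0.00436, edgeR), 1 of the 5 genes called in that comparison. Rpl34-ps2 (4.26, adjusted p = 0.135) and Rps2-ps8 (-0.7, adjusted p = 0.958) followed among the 224 pseudogene rows (edgeR).

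Rpl34 itself was at 81.8, 99.6 and 47 CPM in WT vehicle livers and 230.4, 84.4 and 116 CPM in WT APAP livers. In KO-label livers it was at 62.1, 44.7 and 76.2 CPM with vehicle and 51, 59.1 and 54 CPM with APAP. Summed with its copies, the WT APAP livers were at 231, 84.6 and 117 CPM and the KO-label APAP livers at 89.2, 100.2 and 91 CPM, which overlapped. The log2 ratio of the group means, KO label over WT label after APAP, was -1.39 for Rpl34 alone and -0.63 for the sum, which is near the median member at -0.51.

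Rps3a1 (chr3:86137940-86142668), a small-subunit protein, matched Rps3a2 (chr14:88122952-88123833) at 99.5% and Rps3a3 (chr13:108670580-108671443) at 98.9%. Rps3a3 had 19 to 48 counts in 5 livers and 1611 to 7957 in the other 7. Rps3a1 took 158, 212 and 113 CPM in the WT APAP livers, of which liver 2, with 34 counts of Rps3a3, was the highest. The sum over the 3 genes was 427, 219 and 276 CPM in those livers. For the sum, the log2 ratio of group means for APAP against vehicle was 0.38 under the WT label and 0.14 under the KO label. Rps3a1 alone gave -0.00 and 0.09.

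Rpl3 (chr15:80077781-80083406) matched Rpl3-ps1 (chrX:13202518-13203837) at 99.8% identity over 89.6% of its transcript. Rpl3-ps1 had 300 counts in WT vehicle liver 2 and 1477 to 3113 in the other 11 livers. With Rpl3-ps1 and Rpl3-ps2 added, the WT vehicle livers were at 209, 236 and 239 CPM and the KO-label vehicle livers at 165, 190 and 164 CPM, which did not overlap, whereas Rpl3 alone (139, 229 and 197 against 135, 156 and 111 CPM) did. Among all single genes 6.53% were lower in every KO-label vehicle liver than in every WT vehicle liver. The sum was chosen after its values were seen and was not tested.

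Rpl29 (chr9:106428889-106431568), a large-subunit protein, had 13 near-identical copies in the table by the same definition. It was counted 387, 3194 and 389 times in WT vehicle livers and 579, 613 and 556 times in WT APAP livers. In KO-label livers it was counted 377, 416 and 4760 times with vehicle and 2810, 493 and 4159 times with APAP. The counts fell into a range of 377 to 613 in 8 livers and 2810 to 4760 in 4, and both ranges occurred in every group except WT APAP, whose 3 livers were all in the lower. Rpl29 alone set the lowest member value for APAP in WT livers and the highest for the label after APAP, and its log2 fold change over all livers was -0.78 (SE 0.8, adjusted p = 0.523, edgeR). Without WT vehicle liver 2 its APAP change under the WT label went from -1.51 to 0.34.

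**Figure D4:**
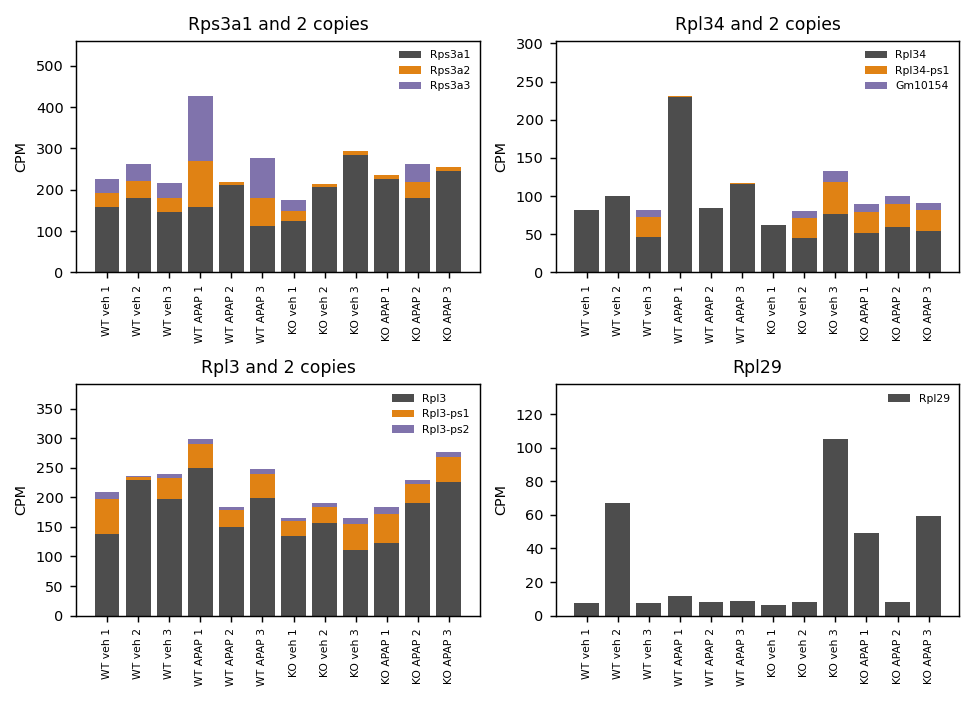
CPM in each liver for Rps3a1, Rpl34 and Rpl3, each stacked with the 2 copies named (bars start at 0), and for Rpl29. Rpl34-ps1, Gm10154 and Rps3a3 were counted often in some livers and almost not in others. Rps3a2, Rpl3-ps1 and Rpl3-ps2 ranged from 318 to 5579, 300 to 3113 and 28 to 687 counts. Rpl29 stood at 49.1 to 105 CPM in 4 livers and 6.33 to 11.5 CPM in the other 8.

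Genes that make ribosomes or drive their synthesis, rather than compose them, were called in larger number. Of 64 ribosome biogenesis genes, 51 rose after APAP over all livers and 0 fell (edgeR, adjusted p under 0.05), where 14.0% of all genes rose and 11.4% fell. Their median log2 fold change was 0.63. The smallest p-values among them were those of Nop56, a box C/D snoRNP protein, at 1.56 (SE 0.13, adjusted p = 8.73e-06), Gnl3, nucleostemin, at 1.39 (SE 0.15, adjusted p = 4.25e-05), Myc, which drives ribosome synthesis, at 3.53 (SE 0.39, adjusted p = 6.64e-05), and Taf1d, of the RNA polymerase I factor SL1, at 1.21 (SE 0.14, adjusted p = 6.66e-05), all by edgeR. Nop56 was at 14.8 to 19.2 CPM in the 6 vehicle livers and 38.3 to 64.8 CPM in the 6 APAP livers, which did not overlap. Within WT livers 3 of the 64 rose (1.62% of all genes did), with a median of 0.44, and within KO-label livers 53 rose (13.0% of all genes did), with a median of 0.86. Without WT APAP liver 1 the WT median was 0.47, while that of the ribosomal proteins was 0.02. The lists were chosen with earlier results of these data known, and the difference between them was not tested.

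**Figure D5:**
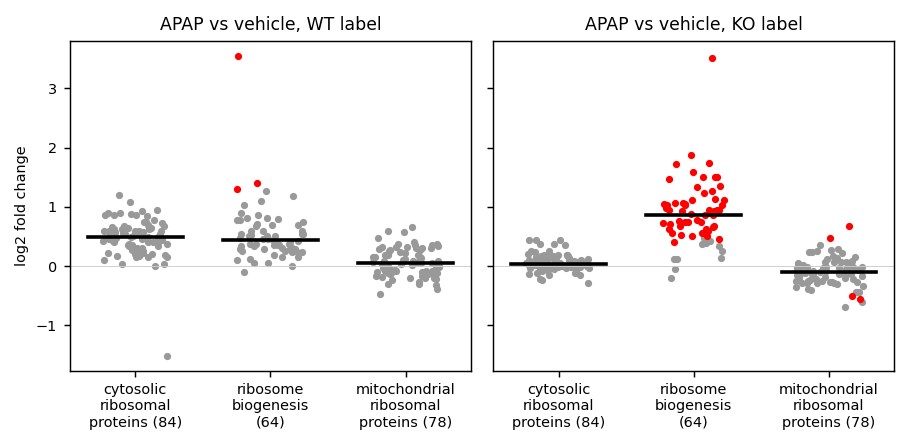
Log2 fold changes for APAP against vehicle under the WT label (left) and the KO label (right) for 84 cytosolic ribosomal protein genes, 64 ribosome biogenesis genes and 78 mitochondrial ribosomal protein genes. Red points passed an adjusted p of 0.05 and black lines are medians (0.48, 0.44 and 0.05 on the left, 0.04, 0.86 and -0.09 on the right).

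For the lists that follow, the shares of all genes over all livers are again 14.0% higher and 11.4% lower. Of 12 genes for import and assembly chaperones of ribosomal proteins, 5 rose and 0 fell over all livers. These were Ltv1 (0.94), Tsr2 (0.63), the escort of Rps26, Grwd1 (1.08), that of Rpl3, Rrs1 (0.79) and Bop1 (0.35), with adjusted p-values from 0.000939 to 0.034 (edgeR). The list shared some genes with the biogenesis list. Among 18 genes of mTORC1 and LARP1, 4 rose and 3 fell. Eif4e, the cap-binding protein, rose by 0.99 (SE 0.13) and Eif4ebp1, an mTORC1 substrate that binds it, by 0.98 (SE 0.15), with adjusted p-values of 0.000175 and 0.000616 (edgeR). Deptor, an mTORC1 inhibitor, and Eif4ebp2 fell by 1.21 (SE 0.21) and 0.54 (SE 0.1), with adjusted p-values of 0.00115 and 0.00208 (edgeR). Larp1 at 0.17 (SE 0.13, adjusted p = 0.402, edgeR) and Mtor at 0.1 (SE 0.18, adjusted p = 0.726, edgeR) did not pass. Of 22 translation factors and other TOP mRNAs, 1 rose (Hnrnpa1, 0.75) and 1 fell (Eif4b, by 0.37), with adjusted p-values of 0.00102 and 0.0365 (edgeR). In that list Tpt1 was at 0.35 (adjusted p = 0.0558) and Nap1l1 at 0.22 (adjusted p = 0.105), and Fau, a ribosomal fusion gene, at 0.17 (adjusted p = 0.585), and none of these passed (edgeR).

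Of 7 tested genes on the Mdm2 and p53 list, 4 rose and 1 fell. Mdm2 rose by 1.85 (SE 0.13, adjusted p = 2.51e-06), Cdkn1a, a cell cycle inhibitor and p53 target, by 4.01 (SE 0.53, adjusted p = 0.000218), and Bbc3 and Zmat3 by 0.82 and 0.41 (edgeR). Ccng1, another p53 target, fell by 0.47 (SE 0.14, adjusted p = 0.0308, edgeR). The mitochondrial ribosomal proteins, encoded by 78 nuclear genes, had 1 member higher and 4 lower over all livers, with a median of -0.00. Without WT APAP liver 1, 10 were lower, and the share of all genes in that fit is not given here. The smallest p-values were those of Mrpl49 (-0.42, adjusted p = 0.00521), Mrps18b (0.57, adjusted p = 0.016), Mrpl39 (-0.27, adjusted p = 0.022) and Mrpl15 (-0.36, adjusted p = 0.0289) by edgeR. Among 99 tested rows with a ribosomal protein pseudogene symbol 0 passed in either direction, and the median was 0.29. At an unadjusted p under 0.05, 5 of these rows were higher, where 19.5% of all genes were. Markers of other cells moved with treatment in part, beside the 14.0% of all genes that were higher: over all livers 2 of 8 tested neutrophil genes (Cxcr2 and Il1b), 4 of 7 endothelial genes (Lyve1, Pecam1, Cdh5 and Stab1) and 0 of 6 erythroid, 10 Kupffer cell and 10 lymphocyte genes were higher, 2 of 12 hepatocyte genes (Cyp2e1 and Pck1) were lower, and none of these lists had calls the other way. All 8 tested neutrophil genes were higher at an unadjusted p under 0.05, where 19.5% of all genes were. The part of these cells in the member levels was not tested.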

How the data were processed

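Poly-A RNA from 12 mouse livers was sequenced with a stranded kit. The submitters' processing notes name Trimmomatic 0.38, HISAT2 2.1.0, Bowtie2 2.3.4.1, StringTie 2.1.3b and the mouse build GRCm38 (mm10). For each gene the authors gave an unnormalized read count in each library, which entered the tests. The deposited FPKM column of each library was left aside. Levels between genes used the TPM that the authors deposited, on a linear scale. Groups came from the sample labels, and 0 columns were unmatched. The livers are separate animals per the labels.

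Counts were filtered (filterByExpr), scaled by TMM and tested with edgeR 4.0.16 (quasi-likelihood) in R 4.3.3, adjusted over all genes tested, at a threshold of 0.05. Comparisons within a label or treatment used the 6 livers compared, and the comparison over all livers and the interaction used 12. The members, the gene lists and the tests were chosen with earlier results of these data known. Members named with statistics were up to 6 per direction by p-value over all livers, up to 3 per direction in other comparisons, the relatives, and the 3 highest and 3 lowest levels. Rpl36a, Rpl22, the non-overlapping members and the near-identical copies were named after their values were seen. From other lists, up to 4 genes by p-value were named, with Larp1, Mtor, Eif4ebp1 and Fau. Some genes that the rule named are not reported here. Transcript lengths were those of the shortest principal transcript in GENCODE M21. Copies were searched with blastn. The fits were also run on simulated counts drawn independently for each gene. Such counts lack the shared movement of members from liver to liver, so that run cannot speak to it. Alternatives were DESeq2 1.42.0, limma 3.58.1 (TPM after log2 and quantile normalization, with a pseudocount of 1 or 0.1), library totals or DESeq2 size factors for scaling, no filter or at least 10 counts in every library, all livers in a single fit, a replicate block, leaving out each liver, and, added after the data were seen, a transcript length offset and leaving out 2 livers together. Total counts of 49737950 to 69566079 put 3 counts at 0.0399 to 0.0663 CPM, which covers counting error only.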

Additional observations from a re-analysis of the deposited data

How the results depend on the processing

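No member passed as lower in any comparison under any alternative run. Members passing as higher for APAP over all livers, 1 as reported, numbered 6 with library totals, 5 with DESeq2, 2 with at least 10 counts in every library, 9 and 2 with limma on log2(TPM + 1) and log2(TPM + 0.1), 6 with the length offset, 2 without WT APAP liver 1 and KO-label vehicle liver 3, and 0 to 5 when leaving out each liver in turn (3 without WT APAP liver 1 or WT vehicle liver 2, 5 without WT APAP liver 2). Under the KO label, 0 as reported became 3 with library totals, 1 with DESeq2, 2 with limma on log2(TPM + 1) and 1 with the length offset. In the reported fits 14.0% of all genes passed as higher over all livers and 13.0% under the KO label. The shares of all genes in most alternative fits are not given here. These member counts alone therefore show no response particular to the members. The replicate number was also fitted as a block. Same-numbered livers correlated by -0.264 to 0.0491 in their deviations, and differently numbered livers by -0.137 to 0.316. With 3 livers per group, whose deviations sum to 0, this cannot show whether same-numbered livers shared a source. With the replicate block, the members higher over all livers fell from 1 to 0, and no other member count changed. Leaving out each liver, the median member ran from 0.02 to 0.69 for APAP in WT livers, from -0.09 to 0.26 in KO-label livers, from 0.05 to 0.37 over all livers, from -0.29 to 0.07 for the label with vehicle, from -0.74 to -0.07 for the label after APAP and from -0.69 to 0.06 for the interaction, which was 0.23 without both livers named above. The values of 0.02, 0.05, -0.07 and 0.06 came from leaving out WT APAP liver 1.

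Named members also changed sign. Rpl29 ran from -1.98 to 0.34 under the WT label, from -1.1 to 0.12 over all livers and from -0.37 to 3.95 in the interaction when leaving out each liver. Over all livers it was 0.04 and 0.05 with limma at the higher and lower pseudocount and 0.36 without both livers. For APAP under the KO label the leave-one-out ranges were -0.5 to 0.14 for Rpl35a, -0.35 to 0.08 for Rpl36al and -0.42 to 0.19 for Rps27l. With vehicle, the label difference ran from -0.14 to 0.73 for Rps27rt and from -0.13 to 0.43 for Rpl37rt. In the interaction Rpl7l1 ran from -0.02 to 0.25, and Rpl35a and Rpl37 were 0.07 and 0.05 without both livers. Summed levels of 2.38%, 2.87%, 2.3% and 2.8% of TPM (WT vehicle, WT APAP, KO-label vehicle, KO-label APAP) were 1.12%, 1.41%, 1.09% and 1.27% of counts, and 2.8%, 3.34%, 2.73% and 3.3% of the TPM of nuclear protein-coding genes. With library totals alone the median of all genes for the label after APAP moved from -0.02 to 0.22 and that of the members from -0.51 to -0.20, and all-gene calls for APAP split 2131 higher to 1013 lower over all livers (2307 to 1880 as reported), 2252 to 831 under the KO label (2034 to 1504) and 158 to 15 under the WT label (255 to 67). With limma at the higher pseudocount the split over all livers was 1944 to 2447. The causes were not tested. With 3 livers per group, the standard errors of most members (median 0.33 for APAP under the WT label and 0.19 under the KO label) limit what could be called.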
